A study of Mus musculus with 13 samples.

Results

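Genes of fatty acid oxidation, ketogenesis and the PPAR alpha program were examined in liver RNA of wild type (WT) and *Nod2*-/- mice. The list holds 46 genes out of 53465 genes in the count table, and it does not cover the whole pathway. It was written from general knowledge of the pathway, with earlier results of these data known. All 46 members were found and passed edgeR's filter on low counts, which kept 13545 genes. They fall into 7 groups by role, which are 3 regulators, 12 genes of peroxisomal oxidation, 16 of mitochondrial oxidation, 4 of omega oxidation, 1 of ketogenesis, 5 acyl-CoA thioesterases and 5 other targets of PPAR alpha.

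Both groups were male BALB/c mice, an inbred strain, with a labelled age of 30 weeks. All 13 mice, 6 WT and 7 *Nod2*-/-, had been given the carcinogen DMBA on the skin as pups. They were then kept on a high-fat diet (HFD). The labels give the disease state of every mouse, WT included, as cancer. For male mice on this regimen, however, the study reports more liver tumors and more weight gain in *Nod2*-/- than in WT mice. Genotype, tumor load and body weight therefore cannot be told apart here. *Nod2* encodes a sensor of bacterial peptidoglycan and is deleted in the *Nod2*-/- mice. The genotypes were bred separately in one room, so that genotype and breeding line cannot be told apart, and the tumor content of each piece of liver is not given in the sources used here. The comparison asks how the liver transcriptome of mice lacking *Nod2* differs on this regimen.

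Liver cells take up fatty acids, activate them to acyl-CoA and shorten them by beta oxidation, in mitochondria for most chains and in peroxisomes for very long and branched ones, while omega oxidation in the endoplasmic reticulum starts from the other end of the chain. PPAR alpha is a nuclear receptor that binds fatty acids, pairs with RXR on DNA and switches on genes of all 3 routes in fasting or when fatty acids flow into the liver. Acetyl-CoA from beta oxidation feeds the making of ketone bodies.

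PPAR alpha with RXR is known to bind 2 copies of the hexamer AGGTCA in direct repeat with 1 base between them. Both strands of RefSeq promoters (build GRCm38.p6), which run from 250 bases before to 50 bases after a start site, were searched for this repeat with at most 2 mismatches over the 12 letters of both copies, and 36 of the 46 members matched the table by symbol, with 41 promoters. The repeat was found in 5 of these 41 promoters (12.2%) and in 1268 of all 32851 (3.86%), and the plain hexamer, which also lies in some of the repeats, in 9 (22%) and 5340 (16.3%). These matches are descriptions of letters, not of binding. Windows from 4 of the promoters are shown because they hold the repeat, in capitals, and the promoters of *Ehhadh* and *Decr2* because these are the members that passed the test below. *Fabp1* (plus strand, chr6:71199798-71199838, 1 mismatch), *Acot4* (plus strand, chr12:84038352-84038392), *Etfa* (minus strand, chr9:55512294-55512334) and the inner start site of *Creb3l3* (minus strand, chr10:81092774-81092814), the other 3 with 2 mismatches, are each written 5′ to 3′ on the strand of the gene.
Fabp1: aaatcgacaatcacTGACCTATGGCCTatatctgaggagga
Acot4: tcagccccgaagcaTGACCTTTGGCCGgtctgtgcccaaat
Etfa: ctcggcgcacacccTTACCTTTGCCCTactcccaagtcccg
Creb3l3: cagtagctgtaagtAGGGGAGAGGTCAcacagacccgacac

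The repeat read on the opposite strand in *Fabp1*, *Acot4* and *Etfa* and on the gene's strand in *Creb3l3*. It began 67 bases before the start site in *Fabp1*, 13 in *Acot4*, 77 in *Etfa* and 209 in *Creb3l3*. The fifth match, in *Slc25a20*, lay after the start site. The 250 bases before the start sites of *Ehhadh* (minus strand, chr16:21787835-21788084) and *Decr2* (minus strand, chr17:26090165-26090414) held neither the hexamer nor the repeat. This RefSeq start of *Decr2* lies inside the gene span given below, which comes from another annotation, so part of the *Decr2* bases lies within that span. The capitals mark the stretch closest to the repeat, with 4 mismatches in *Ehhadh* and 5 in *Decr2*.
Ehhadh: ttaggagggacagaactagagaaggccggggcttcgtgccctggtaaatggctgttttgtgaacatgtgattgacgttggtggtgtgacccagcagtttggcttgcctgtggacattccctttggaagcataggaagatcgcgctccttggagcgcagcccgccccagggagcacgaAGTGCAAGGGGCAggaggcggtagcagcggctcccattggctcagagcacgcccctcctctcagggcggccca
Decr2: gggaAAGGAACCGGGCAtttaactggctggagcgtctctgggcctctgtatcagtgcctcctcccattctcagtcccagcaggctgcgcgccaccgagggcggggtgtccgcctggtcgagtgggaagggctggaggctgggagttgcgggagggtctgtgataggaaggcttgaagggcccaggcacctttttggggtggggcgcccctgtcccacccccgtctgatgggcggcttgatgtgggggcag

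RNA counts per mouse ranged from 14886273 to 20579984 in WT and from 13824780 to 19391431 in *Nod2*-/- mice. *Nod2* itself had 0 to 4 counts in WT and 1 to 6 in *Nod2*-/- mice, so its transcript gave no check of the genotype labels at this depth. All 10 hepatocyte markers were well above 0 in every mouse and none passed the test, while *Acta1*, *Myh4* and *Myl1* of skeletal muscle were at 0 throughout and the summed adipocyte markers stayed at or under 44.9 normalized counts. Values below are normalized counts, that is, counts divided by each mouse's TMM-corrected depth and multiplied by the mean depth, and single members are given as the lowest, median and highest mouse of a genotype. In whole liver, fewer cells of a type and less RNA per cell cannot be told apart.

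Most members had lower values in *Nod2*-/- mice, and few of these differences passed the test on their own. In edgeR's quasi-likelihood fit, with Benjamini-Hochberg adjusted p over all genes tested, 2 of 46 members, *Ehhadh* and *Decr2*, fell at 5% FDR, where 0.509% of all genes were called lower. No member rose, where 0.65% of all genes were called higher. The fitted log2 fold change was below 0 for 42 of 46 members, against 47.7% of all genes, and its median was -0.50 over the members and 0.02 over all genes. At an unadjusted p under 0.05, 31 members were lower, against 10.2% of all genes, and 0 were higher, against 12.9%. WT and *Nod2*-/- mice did not overlap, with WT above, in 2 members and in 0.687% of all genes. Members do not vary independently of each other, so these counts describe the list and are not a test of it.

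The number of members past the test depended on single mice and on the tool. Without WT replicate 3, 23 members fell and 1, *Abcd2*, rose, where 3.37% of all genes were called lower and 5.12% higher. With any of WT replicates 1, 2, 4 and 5 or of *Nod2*-/- replicates 2, 6 and 7 left out, 0 members passed. Of all genes tested, 20 (0.146%), 21, 22 and 24 were called lower without WT replicates 1, 2, 4 and 5. Without *Nod2*-/- replicates 2, 6 and 7, 72, 28 and 26 were called lower, against 69 with all mice. Without *Nod2*-/- replicate 5, 7 members fell, where 0.633% of all genes were called lower. DESeq2 on all 13 mice called 18 members lower and 0 higher, with 3.47% of all genes called lower and 3.82% higher. Without WT replicate 3, a fit chosen after seeing the data, DESeq2 called 30 members lower and 1 higher, against 5.65% and 8.01% of all genes.

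**Figure D1:**
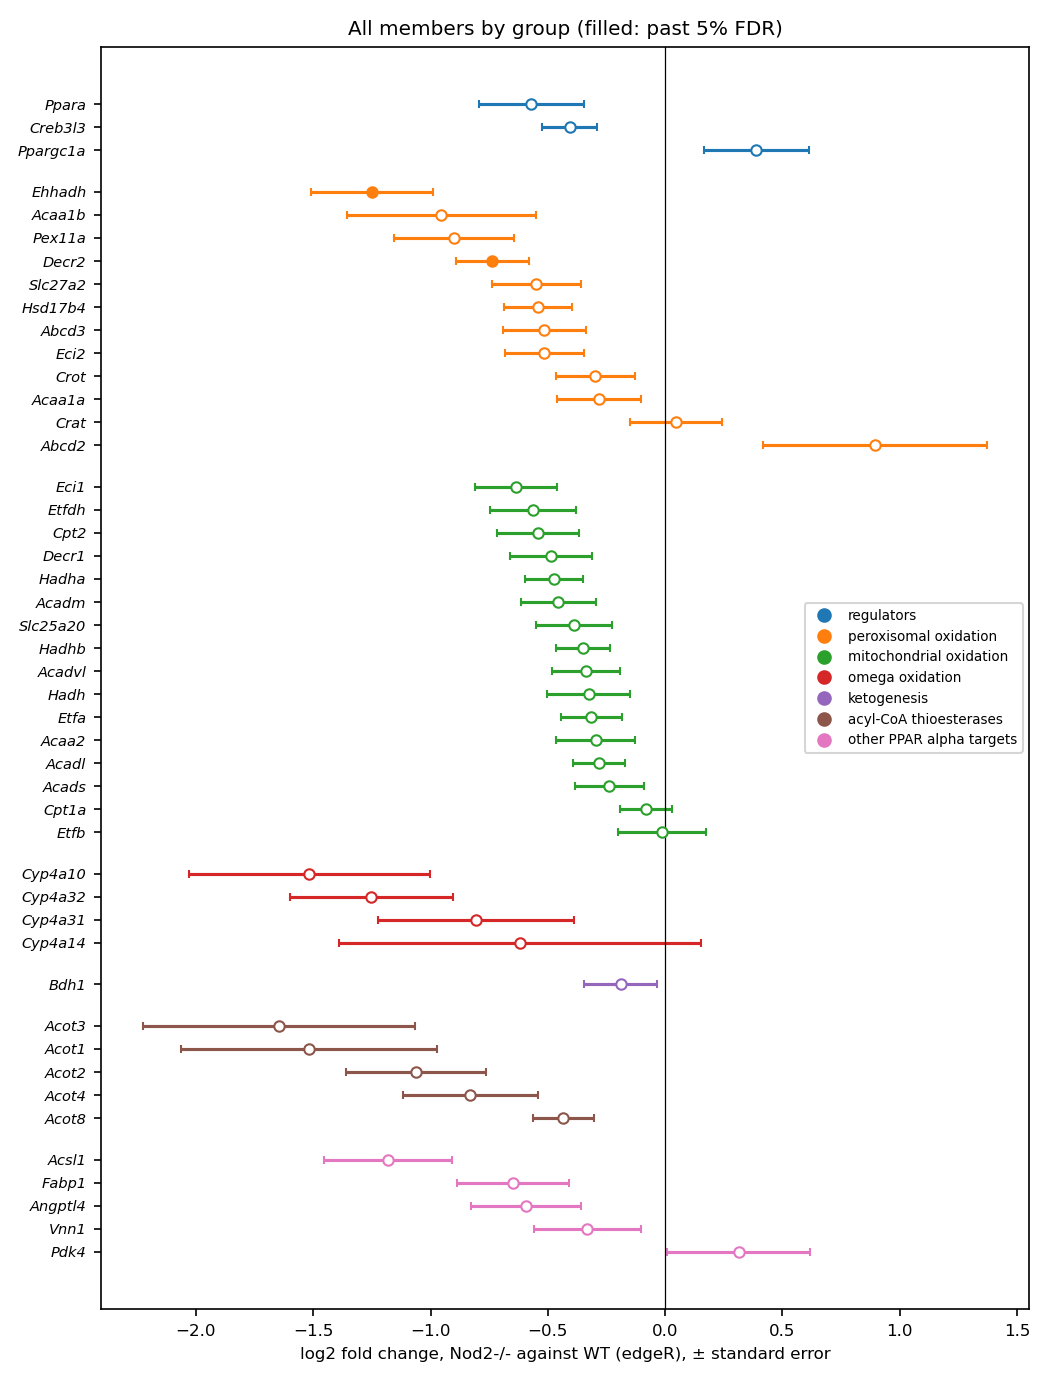
Log2 fold change of each of the 46 members, *Nod2*-/- against WT, by edgeR with its standard error, on the horizontal axis, ordered within 7 groups of roles shown by color. Of the points, 42 lie left of 0 and the 2 filled ones, *Ehhadh* and *Decr2*, passed 5% FDR, while *Abcd2*, *Ppargc1a*, *Pdk4* and *Crat* lie right of 0.

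Among the regulators, 0 of 3 passed the test. *Ppara*, the receptor itself, had 1462, 2282 and 2669 normalized counts (lowest, median, highest) in WT and 998, 1185 and 2526 in *Nod2*-/- mice. 4 of the 7 *Nod2*-/- mice were below every WT mouse and the groups overlapped. The fitted difference was -0.57 ± 0.22 (log2, SE), with an edgeR adjusted p of 0.150. *Creb3l3*, a liver transcription factor that acts with PPAR alpha in fasting, had 7320, 9514 and 9832 in WT and 5530, 7339 and 8304 in *Nod2*-/- mice, and its lowest WT value, that of WT replicate 3, stood apart from the other WT mice, which lay between 9421 and 9832. Its difference was -0.41 ± 0.12 (edgeR adjusted p = 0.0775), and -0.48 without WT replicate 3, with an adjusted p of 0.0275. *Creb3l3* passed only in this 1 of 13 fits with a mouse left out, and its edgeR adjusted p reached 0.174. *Ppargc1a*, a coactivator that drives oxidation in fasting, had 61.4, 126 and 155 in WT and 102, 154 and 207 in *Nod2*-/- mice, with a difference of 0.39 ± 0.22 (edgeR adjusted p = 0.308).

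Of 12 genes of peroxisomal oxidation, 2 fell and 0 rose, against 0.509% and 0.65% of all genes, with a median log2 fold change of -0.53. Without WT replicate 3, 7 fell and 1 rose, against 3.37% and 5.12% of all genes. *Ehhadh* (ENSMUSG00000022853.6, chromosome 16, 21761287 to 21787807, minus strand, GRCm38) encodes the peroxisomal enzyme that carries out both the hydratase and dehydrogenase steps. It had 2933, 3832 and 6720 normalized counts in WT and 829, 1882 and 2493 in *Nod2*-/- mice. Every *Nod2*-/- mouse was below every WT mouse, with WT replicates 1 and 2 far above the other WT mice and *Nod2*-/- replicate 4 the lowest of all. *Ehhadh* fell by 1.25 ± 0.26 on the log2 scale, a level 57.9% lower (edgeR adjusted p = 0.0386). Its two-sided exact permutation p, not adjusted over the members, was 0.000583, the smallest that 1716 splits of 13 mice allow.

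*Decr2* (ENSMUSG00000036775.12, chromosome 17, 26081208 to 26090337, minus strand, GRCm38) encodes the peroxisomal dienoyl-CoA reductase used for unsaturated chains. It had 2192, 2724 and 3498 normalized counts in WT and 1045, 1839 and 1960 in *Nod2*-/- mice. The groups did not overlap, although 3 WT mice, with 2192 to 2388, were close to the highest *Nod2*-/- values. *Decr2* fell by 0.74 ± 0.16 on the log2 scale (edgeR adjusted p = 0.0411, exact permutation p = 0.000583). Both genes lost the call when any of WT replicates 1, 2, 4 and 5 or of *Nod2*-/- replicates 2, 6 and 7 was left out, with adjusted p up to 0.107 for *Ehhadh* and 0.108 for *Decr2*, while their log2 differences stayed between -1.36 and -1.10 and between -0.81 and -0.65. The study's own table of changed metabolic genes, drawn from these mice, holds *Ehhadh*, *Acot1* and *Acot2*, so their directions here are not independent evidence. The study's pathway analysis of the same mice also named PPARA among its top regulators, beside POR and SCAP. Its text gives no direction for PPARA activity. By DESeq2, the study's tool, the adjusted p here was 0.000345 for *Ehhadh*, 0.0118 for *Acot2* and 0.0894 for *Acot1*.

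The remaining peroxisomal members were not past the test with all mice. *Pex11a*, which drives peroxisome division, had 1560, 2945 and 3600 in WT and 736, 1326 and 2837 in *Nod2*-/- mice, and all *Nod2*-/- mice but replicate 5 lay at or under 1790. Its difference was -0.90 ± 0.26 (edgeR adjusted p = 0.0765). *Hsd17b4*, the second bifunctional enzyme, had 7122, 9452 and 10690 against 4380, 6183 and 8036, a difference of -0.54 ± 0.15 (edgeR adjusted p = 0.0685), with 5 of 7 *Nod2*-/- mice below all WT mice. *Acaa1b*, a thiolase of the last step, differed by -0.95 ± 0.40 with wide overlap, its WT mice ranging from 6666 to 24050 and its *Nod2*-/- mice from 2540 to 16370. *Slc27a2*, an acyl-CoA synthetase for very long chains, *Abcd3*, a transporter that carries acyl-CoA into the peroxisome, and *Eci2*, an isomerase for unsaturated chains, had differences of -0.55, -0.52 and -0.51, and those of *Crot* and *Crat*, the carnitine transferases for medium and short chains, were -0.30 and 0.05.

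*Abcd2*, a second peroxisomal transporter that is scarce in liver, went the other way. It had 146, 259 and 956 normalized counts in WT and 241, 689 and 1391 in *Nod2*-/- mice. WT replicate 3, with 956, was above 6 of the 7 *Nod2*-/- mice, and the other WT mice reached at most 377. The difference was 0.89 ± 0.48 (edgeR adjusted p = 0.273), and 1.47 without WT replicate 3, with an adjusted p of 0.0444. *Abcd2* passed only in this 1 of 13 fits with a mouse left out. Its difference was as low as 0.61, without *Nod2*-/- replicate 4, and its edgeR adjusted p reached 0.501.

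**Figure D2:**
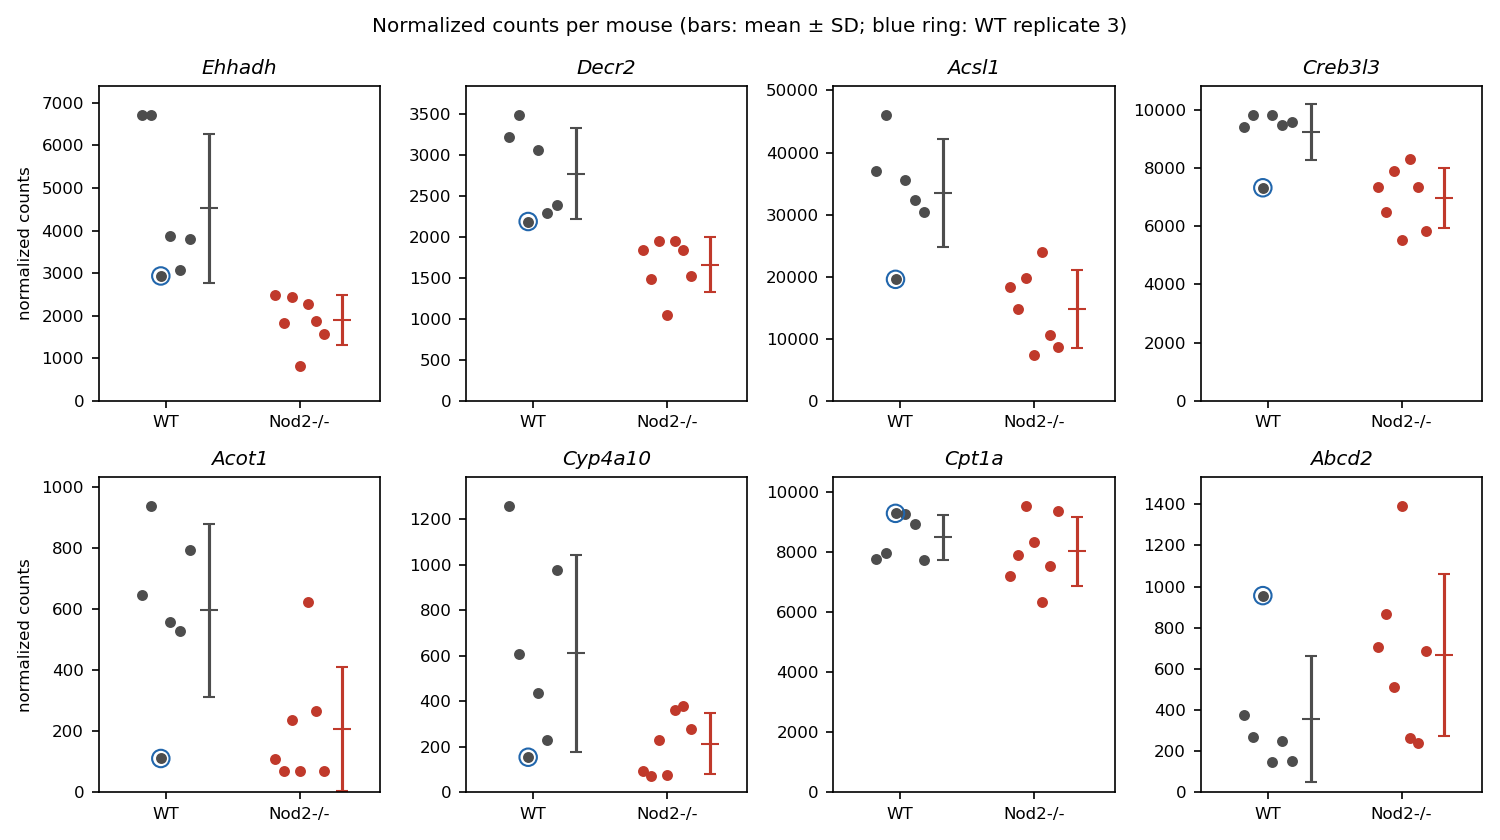
Normalized counts (vertical axes, from 0) of 8 members in each mouse, with 6 WT in gray, 7 *Nod2*-/- in red, bars for mean ± SD and a blue ring on WT replicate 3. WT and *Nod2*-/- mice separate in *Ehhadh* and *Decr2*, overlap in *Acsl1* through WT replicate 3, and share one range in *Cpt1a*.

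All 16 genes of mitochondrial oxidation had fitted log2 fold changes below 0, from -0.64 to -0.01 with a median of -0.34, and 0 passed 5% FDR. Without WT replicate 3, 7 of them fell, against 3.37% of all genes, and the median was -0.44. *Hadha*, the alpha subunit of the trifunctional protein for long chains, had 6219, 7709 and 8520 normalized counts in WT and 4177, 5565 and 6494 in *Nod2*-/- mice, and 6 of 7 *Nod2*-/- mice were below all WT mice. Its difference was -0.47 ± 0.12 (edgeR adjusted p = 0.0659). *Eci1*, the mitochondrial isomerase for unsaturated chains, had 1287, 2315 and 2784 against 1023, 1416 and 2008, where the lowest WT value was that of WT replicate 3 and the next lowest was 2237. Its difference was -0.64 ± 0.17 (edgeR adjusted p = 0.0697).

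The carnitine shuttle, which brings long chains into mitochondria, was uneven. *Cpt1a*, its controlled entry step, had 7744, 8455 and 9300 normalized counts in WT and 6356, 7896 and 9541 in *Nod2*-/- mice. The ranges covered each other, with a difference of -0.08 ± 0.11 (edgeR adjusted p = 0.691). *Cpt2*, which releases the chain inside the mitochondrion, had 2319, 3529 and 4493 against 1665, 2512 and 3352, a difference of -0.54 ± 0.18 (edgeR adjusted p = 0.10), and the carrier *Slc25a20* one of -0.39 ± 0.16. The *Cpt1a* to *Cpt2* ratio of normalized counts was 1.77 to 4.01 in WT and 1.90 to 5.10 in *Nod2*-/- mice, with WT replicate 3 the highest WT mouse.

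The acyl-CoA dehydrogenases, which take the first step for chains of falling length, had differences of -0.34 (*Acadvl*), -0.28 (*Acadl*), -0.45 (*Acadm*) and -0.24 (*Acads*). *Decr1* and *Etfdh*, the mitochondrial dienoyl-CoA reductase and the enzyme that passes electrons to ubiquinone, had -0.49 and -0.56. *Etfa*, *Hadh* and *Acaa2*, for electron transfer, the dehydrogenase of shorter chains and the thiolase, had -0.31, -0.33 and -0.30. *Hadhb* had -0.35 and *Etfb* -0.01, but 59.1% and 59.2% of the 43-base stretches in their transcripts also occur in other annotated genes, among them *Gm13910* and *Gm45233*, so their counts are uncertain.

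In omega oxidation, 0 of 4 *Cyp4a* genes passed the test, and their median log2 fold change was -1.03. These P450 enzymes hydroxylate the far end of fatty acids and are classic targets of PPAR alpha in rodents. *Cyp4a10* had 154, 524 and 1257 normalized counts in WT and 73.4, 232 and 381 in *Nod2*-/- mice, a difference of -1.52 ± 0.51 (edgeR adjusted p = 0.111). *Cyp4a32* had 318, 774 and 1080 against 134, 237 and 537, a difference of -1.25 ± 0.35 (edgeR adjusted p = 0.0723). In both, WT replicates 3 and 5 lay among the *Nod2*-/- mice. *Cyp4a31* was low, at 14.4 to 94.2 in WT and 8.92 to 64.9 in *Nod2*-/- mice (difference -0.81 ± 0.42).

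*Cyp4a14* had 9.94, 84.1 and 435 normalized counts in WT and 12.9, 62.7 and 315 in *Nod2*-/- mice, with 1 far value in each genotype, in WT replicate 1 and *Nod2*-/- replicate 7. Its difference was -0.62 ± 0.77 (edgeR adjusted p = 0.655), and it was 0.21 without WT replicate 1 and -1.43 without *Nod2*-/- replicate 7. *Cyp4a10*, *Cyp4a31* and *Cyp4a32* lie in one cluster on chromosome 4 (115518264 to 115621602, GRCm38) and share 34.3%, 23.7% and 53.8% of their 43-base stretches with other genes, mostly each other. Their sum, which does not depend on how reads are split among them, was 561, 1349 and 2404 in WT and 235, 502 and 849 in *Nod2*-/- mice. The mean log2 difference of the sum was -1.32 (two-sided exact permutation p = 0.0186, 0.042 adjusted over 4 such sums), and all 7 *Nod2*-/- mice were below the WT median. It stayed between -1.54 and -1.12 with any mouse left out, with exact p, here not adjusted over the sums, up to 0.0354. With *Cyp4a14* added, the sum differed by -1.23 (exact permutation p = 0.0315, 0.042 adjusted). Its unadjusted exact p was above 0.05 in 7 of 13 tests with a mouse left out, up to 0.0606. These were the tests without WT replicates 1, 2, 4 and 6 and *Nod2*-/- replicates 1, 2 and 4.

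Ketogenesis was represented by *Bdh1*, which interconverts the main ketone bodies. It had 5390, 8192 and 9925 normalized counts in WT and 4643, 7116 and 8954 in *Nod2*-/- mice, overlapping over most of the range, with a difference of -0.19 ± 0.16 (edgeR adjusted p = 0.482). Other ketogenic enzymes are not analysed here, apart from those in the lists of further genes given later.

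The acyl-CoA thioesterases split acyl-CoA into free acid and CoA, *Acot1* in the cytosol, *Acot2* in mitochondria and *Acot3*, *Acot4* and *Acot8* in peroxisomes. None of the 5 passed 5% FDR. All 5 were lower at an unadjusted p under 0.05, against 10.2% of all genes. All 5 fell without WT replicate 3, where 3.37% of all genes were called lower. That mouse was the lowest WT mouse in each of the 5, so leaving it out raises their WT mean. Their median log2 fold change was -1.06. *Acot1* had 111, 603 and 939 normalized counts in WT and 69.6, 110 and 625 in *Nod2*-/- mice, where the WT mice other than replicate 3 lay at 530 or above and the *Nod2*-/- mice other than replicate 5 at 269 or under. The difference was -1.52 ± 0.55 (edgeR adjusted p = 0.127), and it was -1.75 without WT replicate 3 and -2.12 without *Nod2*-/- replicate 5.

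*Acot2* had 59.6, 117 and 138 normalized counts in WT and 21.9, 51.5 and 89.4 in *Nod2*-/- mice (difference -1.06 ± 0.30, edgeR adjusted p = 0.0727), and 5 of 7 *Nod2*-/- mice were below all WT mice. *Acot3* and *Acot4* had differences of -1.65 ± 0.58 and -0.83 ± 0.29, and *Acot8*, elsewhere in the genome, one of -0.43 ± 0.13 (edgeR adjusted p = 0.0836). *Acot1* to *Acot4* form a cluster on chromosome 12 (83987861 to 84060402, GRCm38) and share 34.8%, 30.7%, 20.6% and 6.28% of their 43-base stretches with other genes, mostly of this family, and *Acot3* and *Acot4* also overlap other annotated genes. Summed, *Acot1* to *Acot4* had 1233, 2780 and 4199 normalized counts in WT and 653, 1497 and 2260 in *Nod2*-/- mice. *Acot4* made up most of this sum, with a mean of 1877 of 2844 in WT and 1055 of 1397 in *Nod2*-/- mice. The mean log2 difference of the sum was -1.04 (two-sided exact permutation p = 0.021, 0.042 adjusted over 4 sums), with all 7 *Nod2*-/- mice below the WT median. With any mouse left out it stayed between -1.25 and -0.88, with exact p, here not adjusted over the sums, up to 0.0455. The sum of *Acaa1a* and *Acaa1b*, the other pair with shared sequence, differed by -0.77 (exact permutation p = 0.0536 both before and after adjustment). Its unadjusted exact p was under 0.05 in 2 of 13 tests with a mouse left out.

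**Figure D3:**
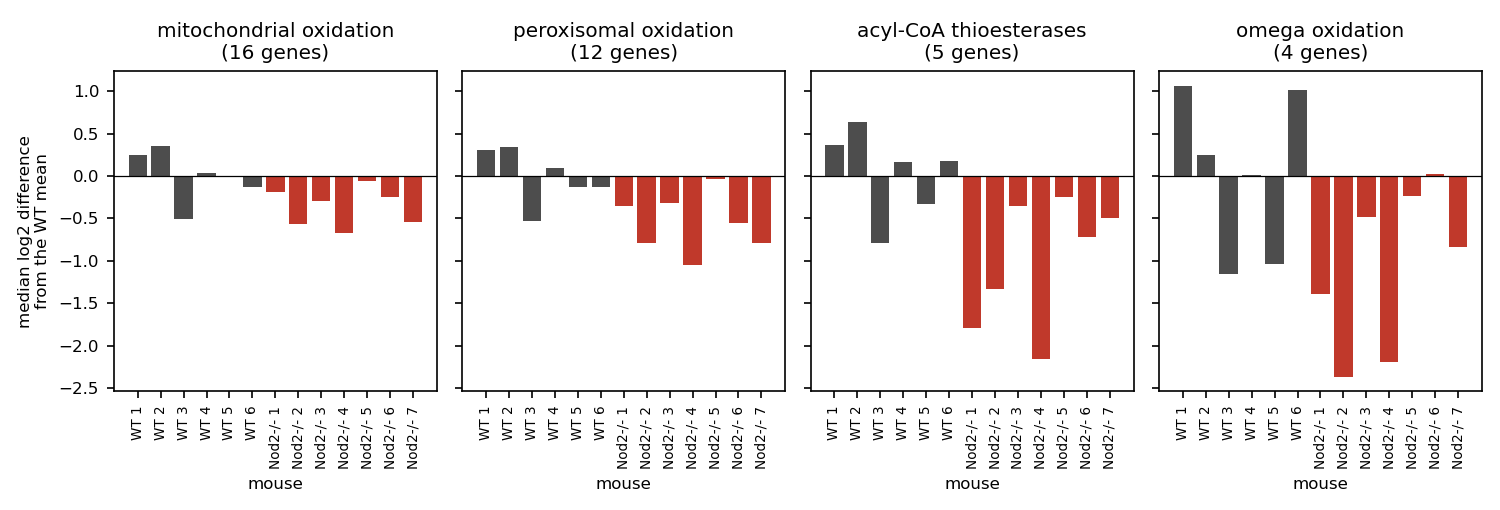
Median log2 difference of the members of 4 groups from their WT mean (vertical axis, log2 of normalized count + 1) in each of the 13 mice, WT in gray and *Nod2*-/- in red. WT replicate 3 lies below 0 in all 4 groups, and the *Nod2*-/- bars reach farthest below 0 in the thioesterases (-2.16 in replicate 4) and omega oxidation (-2.37 in replicate 2).

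Among the other targets of PPAR alpha, 0 of 5 passed the test. Without WT replicate 3, 1 of them, *Acsl1*, fell, against 3.37% of all genes. *Acsl1* (chromosome 8, 46471037 to 46536051, plus strand, GRCm38) encodes the main long-chain acyl-CoA synthetase of liver. It had 19580, 33980 and 46110 normalized counts in WT and 7352, 14730 and 24010 in *Nod2*-/- mice, and WT replicate 3, with the lowest WT value, was the only WT mouse within the *Nod2*-/- range. The difference was -1.18 ± 0.27 (edgeR adjusted p = 0.0523, two-sided exact permutation p = 0.0035, not adjusted over the members). It passed 5% FDR in 4 of 13 fits with a mouse left out, those without WT replicate 3 or *Nod2*-/- replicate 1, 3 or 5.

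*Acsl1* was also lower relative to *Slc27a2*, the other acyl-CoA activating enzyme among the members. The ratio of their normalized counts, which does not depend on library scaling, was 0.874 to 1.19 in WT and 0.476 to 0.778 in *Nod2*-/- mice, and the genotypes did not overlap, WT replicate 3 included. This is 1 of 8 ratios between members chosen with values known, it has no test, and in the other 7 the genotypes overlapped. The *Ehhadh* to *Hsd17b4* ratio, for example, was 0.33 to 0.701 in WT and 0.189 to 0.345 in *Nod2*-/- mice.

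*Fabp1*, the cytosolic fatty acid carrier of liver, had 67660, 104300 and 127200 normalized counts in WT and 39690, 61940 and 98910 in *Nod2*-/- mice, a difference of -0.65 ± 0.24 (edgeR adjusted p = 0.133). *Angptl4*, a secreted inhibitor of lipoprotein lipase, had 2281, 3558 and 5542 against 1943, 2097 and 4830, and 6 of the 7 *Nod2*-/- mice lay at or under 2551 with replicate 5 at 4830. Its difference was -0.59 ± 0.23 (edgeR adjusted p = 0.155), and -0.83 without *Nod2*-/- replicate 5. *Vnn1*, a pantetheinase that returns the vitamin part of CoA, and *Pdk4*, the kinase that shuts off pyruvate dehydrogenase, overlapped over most of their ranges, with differences of -0.33 ± 0.23 and 0.31 ± 0.30 (edgeR adjusted p = 0.395 and 0.553).

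Per kilobase of exon, *Fabp1* had by far the highest mean level among the members in WT mice, 180800 ± 43530 (SD, n = 6) normalized counts per kilobase, followed by *Acaa2* with 13870 ± 3023 and *Slc27a2* with 8676 ± 1448. *Slc27a2* and the next in order, *Acaa1b* (7839 ± 3655), did not differ beyond their spread. The lowest were *Cyp4a31* (21.3 ± 10.5), *Pdk4* (20.3 ± 8.13) and *Ppargc1a* (17.8 ± 4.86), within one another's spread. *Ehhadh* went from rank 16 of 46 in WT to rank 25 in *Nod2*-/- mice, with mean levels of 1516 ± 585 and 638 ± 196 per kilobase, and *Acsl1* from rank 7 to rank 13, with 3199 ± 832 and 1410 ± 594. *Cpt1a* moved from rank 23 to rank 18, with 1112 and 1052 per kilobase.

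**Figure D4:**
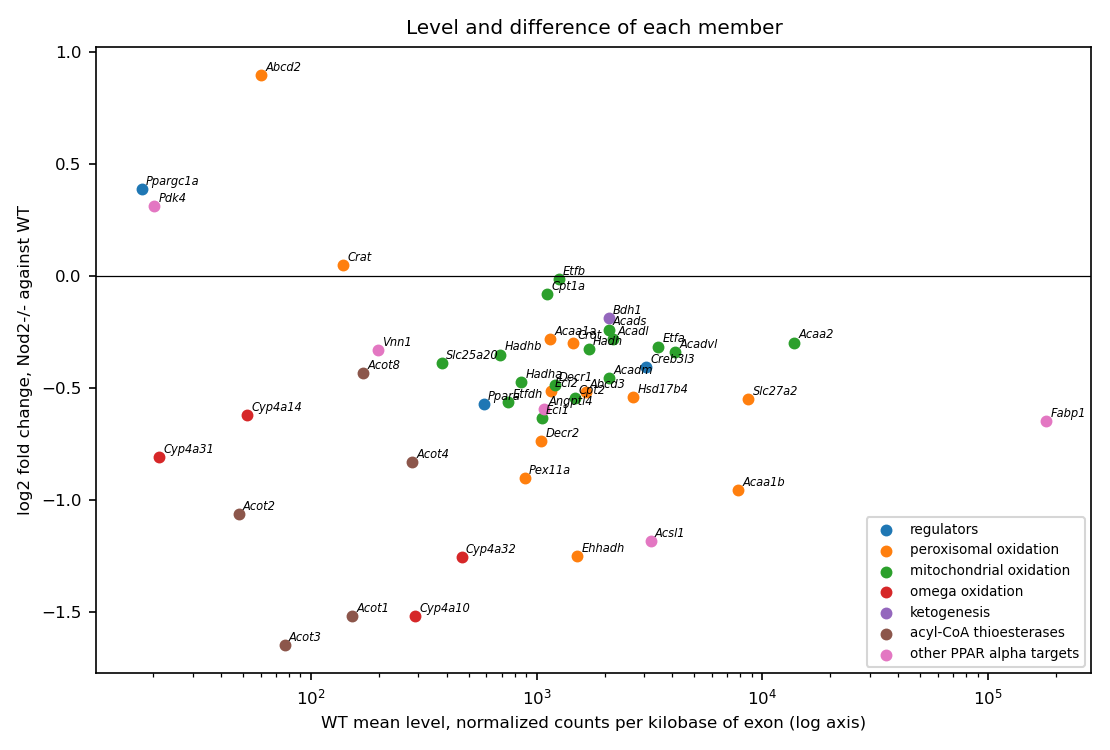
Mean WT level of each member in normalized counts per kilobase of exon (horizontal log axis) against its log2 fold change, *Nod2*-/- against WT (vertical axis), colored by group. Differences below -1 occur from *Acot2* (48.0 per kilobase) to *Acsl1* (3199), while the members with differences above 0 have WT levels of 139 or less.

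The share of all counts on the members was 1.62% to 2.499% in WT mice (2.15% ± 0.348, SD, n = 6) and 1.06% to 1.97% in *Nod2*-/- mice (1.51% ± 0.345, n = 7), a difference of -0.633 percentage points in the means. Without *Fabp1*, the most abundant member, the shares were 1.56% ± 0.234 and 1.12% ± 0.232. The ranges overlapped, and no test was made of the share.

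Mice differed within each genotype along the list. Relative to the WT mean, the median log2 difference over the 46 members was 0.26, 0.34, -0.52, 0.08, -0.03 and -0.09 in WT replicates 1 to 6. It was -0.33, -0.65, -0.30, -0.83, -0.10, -0.45 and -0.60 in *Nod2*-/- replicates 1 to 7. WT replicate 3 thus lay within the range of the *Nod2*-/- mice, and *Nod2*-/- replicate 5 was close to WT replicates 5 and 6. WT replicate 3 was the lowest WT mouse in 36 of 46 members, whereas it was the lowest in 27.3% of all genes tested, and WT replicate 2 was the highest in 25, against 17.5%. Among *Nod2*-/- mice, replicates 4 and 2 were lowest in 19 and 16 members (17.9% and 16.6% of all genes), and replicate 5 was highest in 26 (13.6%).

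The spread within a genotype was wider for the members than for other genes. The median SD of log2 values was 0.364 in WT and 0.368 in *Nod2*-/- mice over the members, against 0.256 and 0.275 over all genes tested. It differed by gene, with an SD in WT mice of 0.127 for *Cpt1a*, 0.163 for *Creb3l3*, 1.17 for *Cyp4a10* and 1.82 for *Cyp4a14*.

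**Figure D5:**
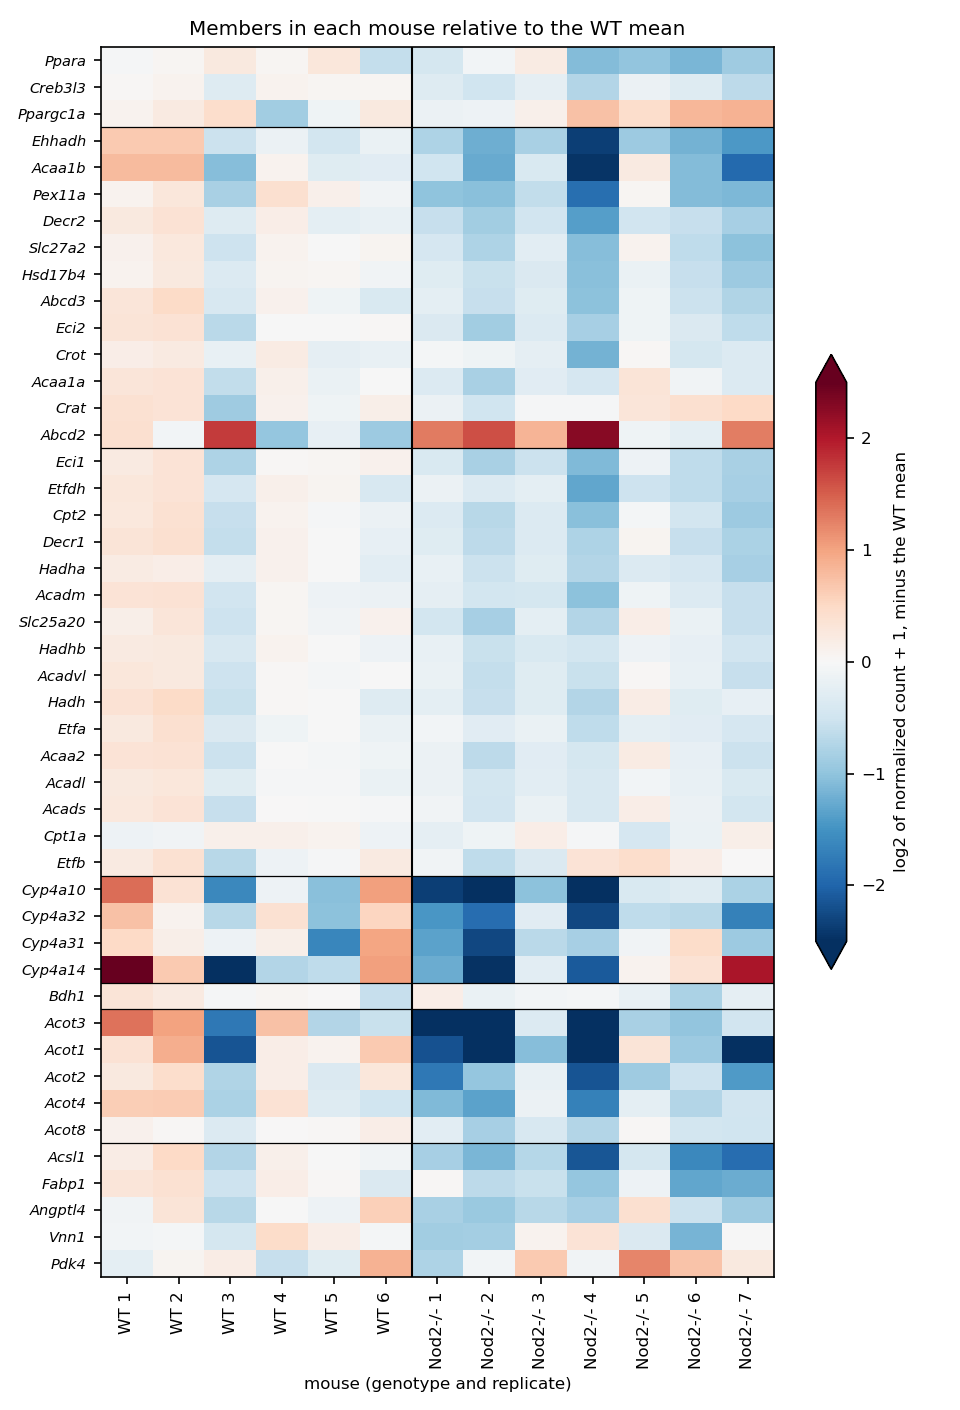
Log2 of normalized count + 1 of the 46 members (rows, by group) in each of the 13 mice (columns), minus the mean of the WT mice, from blue (lower) to red (higher). The column of WT replicate 3 is blue in most rows, like those of the *Nod2*-/- mice, that of *Nod2*-/- replicate 5 is pale, and *Abcd2* runs against the rest.

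The summed markers of other cell types varied between mice, and the genotypes overlapped in the neutrophil, macrophage and cholangiocyte sums. The summed neutrophil markers were 71.3 to 185 normalized counts in WT and 116 to 16950 in *Nod2*-/- mice, where replicate 7 had 16950 and the next highest mouse 1568. The summed macrophage and monocyte markers were 1967 to 3669 and 2497 to 7507. None of the 5 and 11 markers tested passed 5% FDR, although their median log2 fold changes were 4.85 and 0.53. By flow cytometry, the study reports more neutrophils and inflammatory monocytes in *Nod2*-/- than in WT livers at its last time point. The summed cholangiocyte markers were 593 to 3578 in WT, the highest in WT replicate 3, and 1781 to 6662 in *Nod2*-/- mice, the highest in replicate 4, and 1 of the 5 tested markers, *Sox9*, passed 5% FDR. *Spp1* made up most of this sum, with 511 to 3456 in WT and 1541 to 6425 in *Nod2*-/- mice, while the duct keratin *Krt19* was at 71.2 or less in every mouse. The 10 hepatocyte markers summed to 1328000 to 1864000 in WT and 1389000 to 2827000 in *Nod2*-/- mice. The part of any of these cell types in the members' differences was not tested. In a fit scaled to the hepatocyte markers, chosen after seeing the data, 40 members had log2 fold changes below 0, with a median of -0.40 and all genes at 0.10, and 1 member, *Ehhadh*, passed 5% FDR (edgeR adjusted p = 0.0432), where 0.185% of all genes were called lower. The hepatocyte markers were not even among themselves, as *Hpd* and *Cps1* had fitted differences of -0.53 and -0.38 and *Apoa1* one of 0.53.

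Lung markers such as *Sftpc* were present in all mice (summed 214 to 3045 normalized counts in WT, 40.2 to 480 in *Nod2*-/- mice), and their part in the members' values was not tested. Of the pancreas acinar markers *Cela1* was present in all mice, with 586 to 1330 normalized counts in WT and 222 to 936 in *Nod2*-/- mice, whereas *Cpa1* and *Pnlip* were at 0 throughout and *Prss2*, *Ctrb1* and *Amy2b* at 1.14 or less.

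Further genes of the pathway were taken from 5 lists with 128 genes, of which 126 were found under the listed symbols and 121 were tested. Of these, 0 rose and 3 fell by edgeR's test at 5% FDR, where 0.65% of all genes were called higher and 0.509% lower. Without WT replicate 3, 21 fell and 4 rose, where 3.37% of all genes were called lower and 5.12% higher. Log2 fold changes were below 0 for 99 of 121, against 47.7% of all genes, with a median of -0.23. *Acot12*, a liver acetyl-CoA thioesterase, had 2219, 2532 and 3032 normalized counts in WT and 1418, 1812 and 2083 in *Nod2*-/- mice, without overlap, and fell by 0.52 on the log2 scale (edgeR adjusted p = 0.035). *Aldh9a1*, an aldehyde dehydrogenase that also serves carnitine synthesis, had 3709, 4272 and 4854 against 2311, 2912 and 3640, again without overlap, and fell by 0.51 (edgeR adjusted p = 0.046). *Fitm2*, which promotes the budding of lipid droplets, had 1224, 1704 and 1985 against 678, 970 and 1390, and fell by 0.75 (edgeR adjusted p = 0.0345).

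These 3 calls rested on single mice as well, since *Acot12*, *Aldh9a1* and *Fitm2* passed in 6, 3 and 7 of 13 fits with a mouse left out, and all 3 lost the call without WT replicate 1, 2, 4 or 5. Among 20 partners and cofactors of PPAR alpha, 0 passed, with a median of -0.10, and the lowest p was that of *Hnf4a*, a master regulator of hepatocyte genes (difference -0.34, edgeR adjusted p = 0.0805). All 20 peroxins and peroxisomal membrane genes were below 0, with a median of -0.18, and 0 passed, with *Pex26*, a peroxisomal membrane anchor for protein import, at the lowest p (difference -0.57, edgeR adjusted p = 0.0659). Of 27 further mitochondrial enzymes 0 passed, with a median of -0.39 and *Acsm3*, a medium-chain acyl-CoA synthetase, at the lowest p (difference -0.77, edgeR adjusted p = 0.0594). Of the 20 tested genes listed as further peroxisomal enzymes 1 fell, *Acot12*, although this enzyme is known as a cytosolic one. The list of 34 tested further omega oxidation genes and targets held 2 that fell, *Aldh9a1* and *Fitm2*.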

How the data were processed

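Liver RNA of 6 WT and 7 *Nod2*-/- mice had been sequenced by the authors from stranded TruSeq libraries as paired 43-base reads, 1 library per mouse. Per the labels and the submitters' processing notes, reads were trimmed with Trimmomatic 0.33 and mapped with TopHat2 2.1.1 to GRCm38, and the notes also list DESeq2. The authors deposited raw counts, a whole number for each gene and mouse. The counting program and its use of strand and of reads mapping to several places are not given in the sources used here, which leaves overlapping genes and genes with shared sequence uncertain. The labels give polyA RNA and the study's text total RNA. The study states that each experiment drew mice from several cages and breeder pairs, but which of these mice shared a cage or litter is not given. The p-values treat the mice as independent, which shared cages or litters would go against.

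The 13545 genes kept by filterByExpr, with 99.9% of counts, were tested in R 4.3.3 with edgeR 4.0.16 (TMM, quasi-likelihood, two-sided, no covariate), with Benjamini-Hochberg adjustment over all of them. A blank entry was left out. Single members and sums of close paralogs were in addition given an exact permutation test, two-sided, of the mean log2 of normalized count + 1, over 1716 splits. For single members this p was not adjusted over the list. Medians per mouse use the same scale. No pair of libraries within a genotype differed by as little as counting noise (36 pairs, chi-square divided by its degrees of freedom between 11.7 and 182). The scripts were tested on simulated data. Positions, exon lengths and shared 43-base stretches come from GENCODE release M21.

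Members, groups, pathway lists, markers and ratios were chosen with earlier results of these data known. All members are named, with the pathway genes past 5% FDR, the tested gene with the lowest p of each pathway list, and markers whose list total moved with the members. The alternatives were DESeq2 1.42.0, voomWithQualityWeights of limma 3.58.1, RLE normalization, no filter, at least 10 counts in every mouse, removal of the 20 most abundant genes, the replicate number as a block, and leaving out each mouse. Scaling to hepatocyte markers and DESeq2 without WT replicate 3 were added after seeing the data.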

Additional observations from a re-analysis of the deposited data

Results flagged for a closer look

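In 7 of 114 groups of 6 or 7 mice (6.14%), 1 mouse stood far from the others by Dixon's test, which chance does in about 1 group in 20. *Creb3l3* had 7320 normalized counts in WT replicate 3, where the next lowest WT mouse had 9421. *Eci1* had 1287 in the same mouse, against 2237 in the next lowest, and *Abcd2* had 956, against 377 in the next highest. *Cyp4a14* had 435 in WT replicate 1, with 156 in the next highest WT mouse, and 315 in *Nod2*-/- replicate 7, with 97.9 in the next highest *Nod2*-/- mouse. *Acot1* had 625 in *Nod2*-/- replicate 5 (next highest 269), and *Angptl4* had 4830 in the same mouse (next highest 2551).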

How the results depend on the processing

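Of all genes tested, 88 were called higher and 69 lower at 5% FDR with all mice, and 2 members lower. DESeq2 called 605 higher, 549 lower and 18 members lower, and limma's voomWithQualityWeights 519, 324 and 18. Scaling to hepatocyte markers left 25 lower genes and 1 lower member, and DESeq2 without WT replicate 3 called 1253 genes higher and 884 lower, with 1 member higher and 30 lower. Both fits were chosen after seeing the data. With 1 mouse left out, 20 to 697 genes were higher, 20 to 459 lower, 0 to 1 members higher and 0 to 23 lower. The difference in the members' share of counts was -0.738 to -0.557 percentage points. Sums of paralogs differed by -1.25 to -0.88 (*Acot1* to *Acot4*), -1.54 to -1.12 (*Cyp4a10*, *Cyp4a31* and *Cyp4a32*), -1.45 to -1.002 (with *Cyp4a14*) and -0.96 to -0.63 (*Acaa1a* and *Acaa1b*).

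Equal replicate numbers did not pair the mice, as deviations of same-numbered mice correlated at -0.298 to 0.29 and 1 of 6 pairs exceeded 0.1. With the number as a replicate block, 17 genes were higher, 18 lower and 0 members lower, and *Crat* was at -0.0058.

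Some differences near 0 changed sign, and so did that of *Cyp4a14*, at -0.62 with all mice. *Crat* (0.05) was at -0.0777 under voomWithQualityWeights, and under hepatocyte scaling *Cpt1a* was at 0.0027 and *Etfb* at 0.0856. With 1 mouse left out, *Crat* ranged from -0.10 to 0.12, *Etfb* from -0.14 to 0.0652 and *Cyp4a14* from -1.43 to 0.21. The cause was not tested. RLE normalization and removal of the 20 most abundant genes changed no member's call, and without a filter on low counts *Acsl1* also fell. *Cyp4a31*, under 100 normalized counts in every mouse, has the lowest mean of the 46 members, and depth limits its precision.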
